A study of Rattus norvegicus with 5 samples.

Results

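The zinc transporter and metallothionein genes described here are those that the array lists under a name beginning with Slc30a or Slc39a, or as Mt1a, Mt3 or Mtf1, together with any probe whose annotation mentions metallothionein. This gave 26 genes or transcripts of 35658 distinct names on the array, and 35 of its 41012 non-control probes. They comprised 9 Slc30 genes with 12 probes, 12 Slc39 genes with 17 probes, 3 metallothioneins with 4 probes, Mtf1 with 1 probe and 1 unnamed expressed sequence tag. The genes were chosen by name, but as a set they were selected on their log2 courses over the 5 times, so every value below is a description and carries no test.

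Zinc enters and leaves the cytosol through 2 families of carriers. Proteins of the Slc39 family, also called ZIPs, bring zinc into the cytosol from outside the cell or from organelles, and proteins of the Slc30 family, also called ZnTs, move it out of the cytosol. Metallothioneins are small cysteine-rich proteins that bind zinc and copper, and their genes are known in liver for induction by zinc, glucocorticoids and inflammatory signals. The zinc-sensing transcription factor MTF-1, product of Mtf1, binds metal response elements in the promoters of metallothionein genes and of Slc30a1.

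The samples were Fao cells, a rat hepatoma line that keeps many hepatocyte functions. All 5 samples had grown for 2 days with 10% fetal bovine serum. They were then starved for 16 h in the presence of the synthetic glucocorticoid dexamethasone at 10 nM, before 10 nM insulin was added. The groups were 0, 15, 30, 45 and 60 min of insulin, with 1 array each, so no time has a replicate and no difference has a replicate check. The 0 min cells had received dexamethasone like all others, and time-matched cells without insulin were not analysed here. The labels do not say whether the samples were separate cultures.

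Between 50.87% and 56.45% of the non-control spots on an array were well above background. The arrays of 0, 15, 30 and 45 min shared slide 1 and 1 scan, with positions in the order of time, and the 60 min array was on slide 2 with a scan of its own. At 60 min a slide or scan effect and an effect of time cannot be told apart, and on slide 1 neither can position and time. All 8 hepatocyte markers examined, such as albumin and transthyretin, were well above background on all 5 arrays. Of 8 markers of other liver cells on the array, 3 were well above background on all 5 arrays, namely Cd68, Col1a1 and Krt19, and 4 on none (Adgre1, Pecam1, Vwf and Epcam). The summed signal of the other-cell markers stayed between 1.97 and 2.14 times the array's 75th percentile over the 5 times, and that of the hepatocyte markers between 935 and 1043 times. Their part in the results was not tested, and in bulk RNA fewer cells of a type and less RNA per cell cannot be told apart.

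The promoters of the 3 genes with the largest increases, Mt1 (listed as Mt1a on the array), Mt2A (listed as metallothionein-2 and called Mt2 here) and Slc30a1, are shown because these were the genes past 2-fold at 45 and 60 min and because MTF-1 acts at such promoters. Each line gives the 250 bases before the annotated gene start, 5′ to 3′ on the gene's strand, from RefSeq on assembly GRCr8. Capitals mark matches to the core of the metal response element, searched as TGCACNC and TGCGCNC on both strands.
Mt1, chr19:10832976-10833225, minus strand: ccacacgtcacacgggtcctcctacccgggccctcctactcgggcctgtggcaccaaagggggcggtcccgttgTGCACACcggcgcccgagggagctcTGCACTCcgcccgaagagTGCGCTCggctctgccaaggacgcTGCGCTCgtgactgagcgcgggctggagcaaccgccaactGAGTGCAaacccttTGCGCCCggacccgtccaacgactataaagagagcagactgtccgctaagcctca
Mt2A, chr19:10838709-10838958, minus strand: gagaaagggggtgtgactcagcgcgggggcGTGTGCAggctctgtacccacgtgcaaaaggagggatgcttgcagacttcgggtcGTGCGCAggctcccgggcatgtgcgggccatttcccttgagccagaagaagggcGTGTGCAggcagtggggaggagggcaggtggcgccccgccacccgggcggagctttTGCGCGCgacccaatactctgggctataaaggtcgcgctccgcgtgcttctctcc
Slc30a1, chr13:106021769-106022018, plus strand: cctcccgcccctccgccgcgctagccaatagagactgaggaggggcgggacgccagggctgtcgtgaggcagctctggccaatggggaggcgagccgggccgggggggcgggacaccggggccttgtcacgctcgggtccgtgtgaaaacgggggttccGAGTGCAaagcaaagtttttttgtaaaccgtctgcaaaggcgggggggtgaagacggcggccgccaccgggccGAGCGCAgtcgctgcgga

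The Mt1 window held 6 matches, 5 of them on the gene's strand, the Mt2A window 4 and the Slc30a1 window 2, both on the other strand. Of all 33469 promoter windows of this length in the table, 20.6% held at least 1 match, 4.9% at least 2 and 0.266% at least 4. A RefSeq window was found for 20 of the 26 genes or transcripts. Beside Mt1 and Mt2A, the window of Mt3, a metallothionein known from brain, held 3 matches. Another 6 genes held 2 matches like Slc30a1, namely Mtf1, Slc30a2, Slc30a4, Slc30a5, Slc39a11 and Slc39a13. In Slc30a5 and Slc39a11 the 2 matches lay over each other on opposite strands. Slc39a1 held 1 match and the remaining 9 genes none. Of these 6, Slc30a4 was not measured and the other 5 were within 2-fold of their start at every time. A match to these letters is not a measured binding site.

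**Figure D1:**
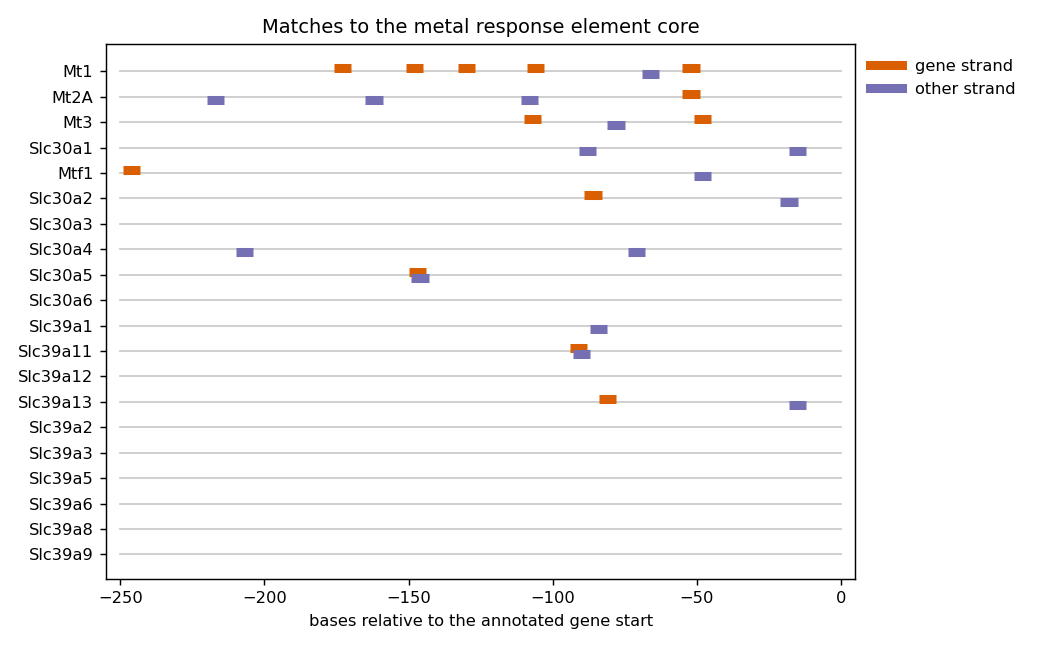
Positions of matches to the metal response element core in the 250 bases before the annotated start of the 20 genes with a RefSeq window, in bases relative to that start, on the gene's strand (orange) and the other strand (violet). Mt1 has 6 matches, Mt2A 4, Mt3 3 and Slc30a1 2, and 9 genes have none; for Slc30a2, which has 2 windows, the one with matches is drawn.

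A level is the log2 ratio of a probe's processed signal to the 75th percentile of its array, and a change is a time's level minus the 0 min level. Levels of different probes are not comparable, because probes differ in how brightly they hybridise. Spots of a probe printed several times on an array gave a technical standard deviation of 0.171 to 0.195 log2 units for a change. This value was taken from the later array's spots alone and holds no variation between arrays, labelling reactions or cultures. Changes of all probes measured at both times had a standard deviation of 0.226 log2 units at 15 min, 0.234 at 30 min, 0.250 at 45 min and 0.340 at 60 min.

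Slc30a1 codes for ZnT1, the carrier that exports zinc across the plasma membrane. Its single probe, at chromosome 13, 107983689 to 107983748 on assembly rn4, had log2 levels of −1.01 at 0 min, −1.33 at 15 min, −0.06 at 30 min, 1.34 at 45 min and 1.85 at 60 min. The level was thus slightly below its start at 15 min and above it at each later time. Relative to 0 min, Slc30a1 was higher by 1.94-fold after 30 min, by 5.12-fold after 45 min and by 7.26-fold after 60 min. The difference at 45 min, on the same slide as 0 min, was 12.1 times the technical standard deviation. It was 9.4 times the standard deviation of the changes of all probes. Among all probes measured on both arrays it ranked 3 of 20356 in size of increase at 45 min and 2 of 21042 at 60 min. The step between neighbouring arrays was 1.27 log2 units between 15 and 30 min, 1.40 between 30 and 45 min and 0.50 between 45 and 60 min, so the larger steps lay on slide 1. No other Slc30a1 probe is on the array to set beside it.

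Metallothionein genes lie side by side on chromosome 19, and their 4 probes spanned 22992 bases on rn4, between 11261706 and 11284697. Mt2, one of the main liver metallothioneins, had log2 levels of 4.22, 3.80, 4.71, 5.78 and 6.40 at 0, 15, 30, 45 and 60 min. It was highest at 60 min and lowest at 15 min. Relative to 0 min, Mt2 was 1.34-fold lower after 15 min, and higher by 1.40-fold after 30 min, by 2.94-fold after 45 min and by 4.52-fold after 60 min.

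Mt1a, the other main liver metallothionein, had a pair of probes whose changes were close at 15 and 30 min and differed at 45 and 60 min. Probe 1, at 11261706 to 11261765, had log2 levels of 5.50, 4.66, 6.14, 7.04 and 6.90 in order of time. Probe 2, at 11262268 to 11262327, lay nearer the 5′ end of the gene on the minus strand, with 502 bases between the probes. The levels of probe 2 were 0.80, 0.09, 1.34, 1.73 and 0.77. On both probes 15 min was the lowest time and 45 min the highest. At 15 min probe 1 was 1.79-fold lower and probe 2 1.64-fold lower than at 0 min. At 45 min probe 1 was 2.91-fold and probe 2 1.91-fold higher. At 60 min probe 1 remained 2.63-fold higher, whereas probe 2 had a change of −0.03. The probes differed in their change by 0.13 log2 units at 15 min, 0.10 at 30 min, 0.61 at 45 min, still on slide 1, and 1.43 at 60 min. The files list probe 2 under an expressed sequence tag and probe 1 under the reference mRNA, and exons and introns were not assigned here. Metallothionein genes resemble each other and have pseudogenes, and cross-hybridisation between them was not tested.

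Mt3 was not well above background on any array. The expressed sequence tag, at chromosome 7, 71695262 to 71697123 and annotated as similar to a transcription activator of the metallothionein-I gene and not as a metallothionein, had log2 levels of 5.16, 5.18 and 5.42 at 15, 30 and 45 min. Its spots at 0 and 60 min, at 5.23 and 5.36, were marked as outliers by the scanner software, so no change was computed for it.

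Mtf1, the gene of the zinc sensor itself, had log2 levels of −2.16, −2.14, −2.13, −1.88 and −2.62 in order of time. Its change was 0.29 at 45 min and −0.45 at 60 min, and 0.03 at both earlier times. On the scale used, Mtf1 mRNA thus stayed within 1.5-fold of its start at all 4 times, including those at which Slc30a1 and Mt2 were highest. With spike-in control transcripts as the scale, its 60 min change was −0.65, past 1.5-fold. With normexp background its 15 min change was 0.76, also past 1.5-fold. Refitted without 5 spots far below their local background, that correction gave 0.06 at 15 min.

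**Figure D2:**
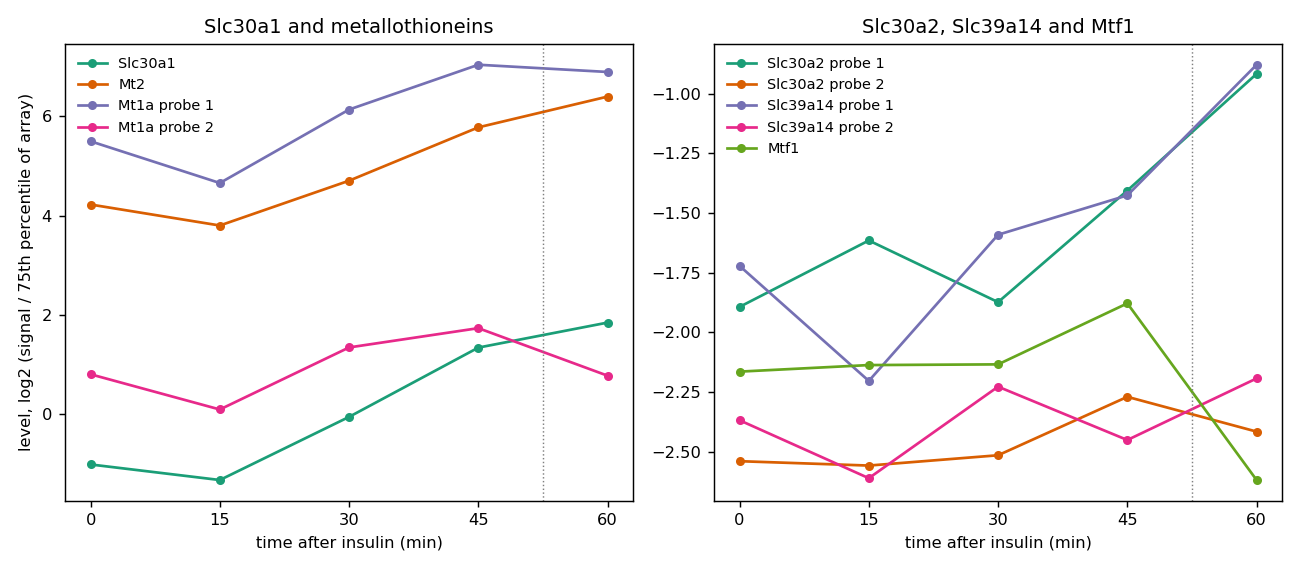
Log2 level of each probe of the 3 genes with the largest changes (left) and of Slc30a2, Slc39a14 and Mtf1 (right) against time after insulin in minutes, with 1 array per point; the dotted line separates the 60 min array, on its own slide. Slc30a1 reaches 1.85 at 60 min and stands at −1.01 at 0 min, and the probes of Mt1a stand at 6.90 and 0.77 at 60 min, where their changes differ most.

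The other exporters all stayed within 2-fold of their start. Slc30a2, which loads zinc into vesicles, was the next largest of the family, but only by one of its probes. Probe 1, at chromosome 5, 153096970 to 153097029, had log2 levels of −1.89, −1.61, −1.87, −1.41 and −0.92 in order of time and was higher by 1.97-fold after 60 min. Probe 2, at 153098295 to 153098354, had levels of −2.54, −2.56, −2.52, −2.27 and −2.42, with a change of 0.12 at 60 min. Probe 1 is headed by transcript variant 2 of Slc30a2 and probe 2 by variant 1, but the accession list of each probe names both variants. At 45 min, within slide 1, their changes were 0.49 and 0.27.

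Slc30a5 and Slc30a6, whose products pair to load zinc into the early secretory pathway, and Slc30a7, which acts there too, were well above background on all 5 arrays. The 3 probes of Slc30a5 had changes between −0.18 and 0.17 up to 45 min, and of −0.17, −0.25 and 0.26 at 60 min. Slc30a6 had changes of −0.28, −0.09, 0.11 and −0.08 at 15, 30, 45 and 60 min. Slc30a7 stayed between −0.04 and 0.13, and Slc30a3, the carrier of zinc into synaptic vesicles in brain, between −0.08 and 0.13. Most of these values lay within or near the technical standard deviation. Slc30a4, Slc30a8, which fills insulin granules of pancreatic beta cells, and Slc30a10, a manganese exporter, were not well above background on any array.

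Among the importers, Slc39a14 had the largest change. Its product, ZIP14, takes up zinc, iron and manganese into hepatocytes and is known for induction during the acute-phase response. Probe 1, listed at chromosome 15, 50709260 to 50709828, had log2 levels of −1.72, −2.20, −1.59, −1.43 and −0.88 in order of time. It was lowest at 15 min and highest at 60 min, with a 1.79-fold difference from its start. Probe 2, at 50705817 to 50705876, had levels of −2.37, −2.61, −2.23, −2.45 and −2.19, with a change of 0.18 at 60 min. Both probes were thus lowest at 15 min, but they differed by 0.67 log2 units in their 60 min change.

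Slc39a1, a carrier of the plasma membrane, had changes of 0.28, 0.55, 0.38 and 0.04 at 15, 30, 45 and 60 min, and so lay above its start in the middle of the hour. Slc39a3 had changes of −0.23, −0.22, −0.26 and 0.08. Slc39a4, the zinc importer of the intestine, had log2 levels of 7.48, 7.50, 7.32, 7.29 and 7.80 in this hepatoma line, with a largest change of 0.32 at 60 min. Slc39a6 had changes between 0.04 and 0.39, highest at 60 min, and Slc39a9 between 0.12 and 0.30.

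The probes of Slc39a11 disagreed at each time. Probe 1 had changes of −0.54, −0.44, −0.39 and −0.21 in order of time, and probe 2 of 0.10, 0.10, 0.10 and 0.28, with a gap of 0.49 to 0.64 log2 units. Slc39a13, which releases zinc from intracellular vesicles, had changes between −0.30 and 0.16 over its 2 probes. Slc39a2 was well above background on all arrays but that of 45 min, and it had changes of 0.05, 0.04 and −0.34 at 15, 30 and 60 min. Its 45 min signal was 1.57-fold below that of 0 min, but too near background to count as a change. Slc39a7, listed under an older name outside the naming rule, had changes between −0.11 and 0.04. Slc39a5, Slc39a12 and all 3 probes of Slc39a8 were not well above background on any array. In all, 9 of the 35 probes and 7 of the 26 genes or transcripts were at no time well above background.

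**Figure D3:**
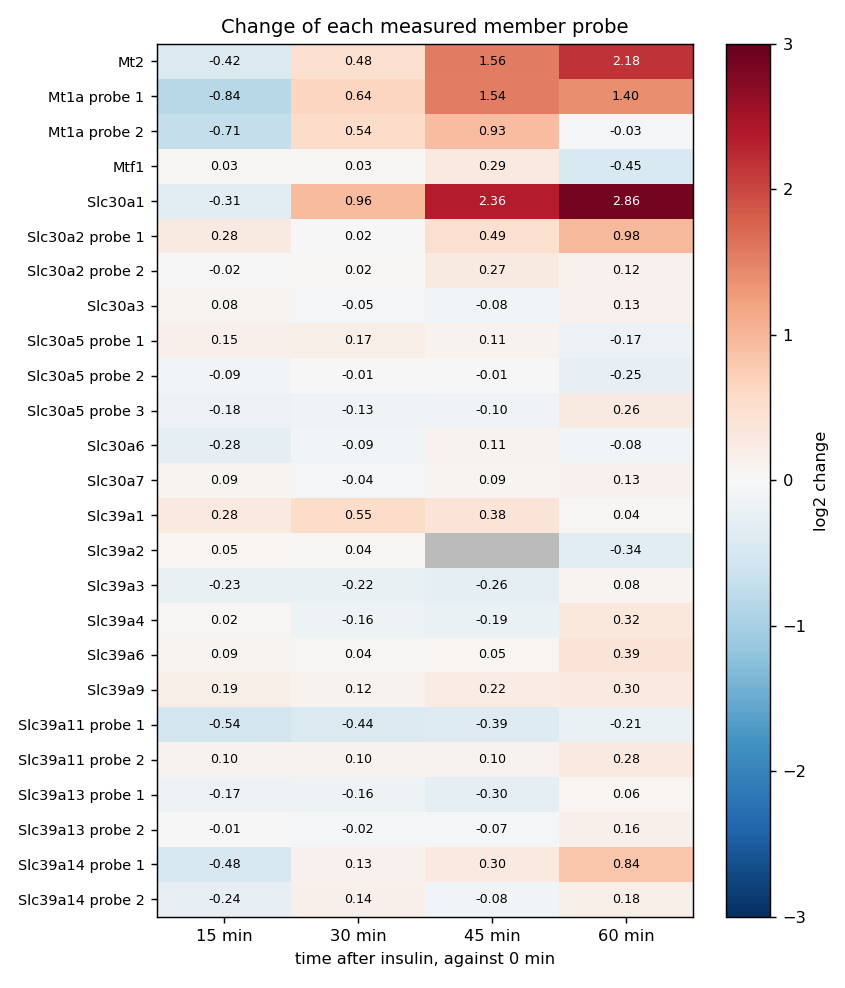
Log2 change against 0 min at 15, 30, 45 and 60 min of each member probe well above background on at least 4 arrays, in rows by gene; red is higher, blue lower, and grey marks a time not well above background. The deep red cells are those of Slc30a1 at 45 and 60 min, 2.36 and 2.86, and of Mt2 at 60 min, 2.18; importer rows stay between −0.54 and 0.84.

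Counted over the member probes measured on both arrays, 3 of 24 were at least 2-fold higher at 45 min and 3 of 25 at 60 min. They belonged to Slc30a1, Mt2 and Mt1a at both times. Over all probes, 0.334% were at least 2-fold higher at 45 min and 0.632% at 60 min. No member probe was at least 2-fold lower at 45 or 60 min, where 0.255% and 0.627% of all probes were. At 15 and 30 min no member probe passed 2-fold in either direction, against 0.118% of all probes higher and 0.255% lower at 15 min, and 0.232% higher and 0.188% lower at 30 min. Since the members were chosen with these courses known, the shares describe them and support nothing further.

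Scaling bore on the direction of calls over the whole array. With 8 spike-in control transcripts as the scale, the median of all probes shifted to −0.19 at 45 min and −0.18 at 60 min, against 0.02 at both times on the scale used. The split over all probes became 39 higher and 99 lower at 45 min, against 68 and 52, and 76 higher and 268 lower at 60 min, against 133 and 132. On that scale the 45 min changes of Slc30a1, Mt2 and Mt1a probe 1 were 2.15, 1.35 and 1.33, still past 2-fold. Those at 60 min were 2.66, 1.98 and 1.20.

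Among member probes measured on both arrays, 5 of 25 were at least 1.5-fold higher at 60 min, where 3.36% of all probes were, and none lower, where 3.72% were. These were the 3 named and the first probes of Slc30a2 and Slc39a14. With normexp background the change of Slc39a14 probe 1 was 0.47, and so below 1.5-fold. At 15 min 2 of 25 were at least 1.5-fold lower, both of Mt1a, where 0.912% of all probes were, and none higher, where 1.07% were. At 30 min 2 of 25, Slc30a1 and Mt1a probe 1, were at least 1.5-fold higher, where 1.13% of all probes were, and none lower, where 0.918% were. At 45 min 4 of 24, the probes of Slc30a1, Mt2 and Mt1a, were at least 1.5-fold higher, where 1.68% of all probes were, and none lower, where 1.07% were. The members nearest below 2-fold were Slc30a1 at 30 min, at 0.96, Slc30a2 probe 1 at 60 min, at 0.98, and Mt1a probe 2 at 45 min, at 0.93, and the member nearest above it was Mt1a probe 1 at 60 min, at 1.40.

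The median change of the member probes was −0.02, 0.03, 0.10 and 0.13 at 15, 30, 45 and 60 min, against 0.03, 0.02, 0.02 and 0.02 over all probes. With the probes of Slc30a1 and the metallothioneins set aside, a split made after the values were seen, the other 20 or 21 members measured had medians of 0.02, 0.02, 0.07 and 0.13. At 45 min 11 of these 20 lay within 1 technical standard deviation of 0, and at 60 min 8 of 21. The largest change among these other members was 0.98 at 60 min, where 2 of 21 passed 1.5-fold. None passed 2-fold at any time, but the split had set aside every probe that did.

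**Figure D4:**
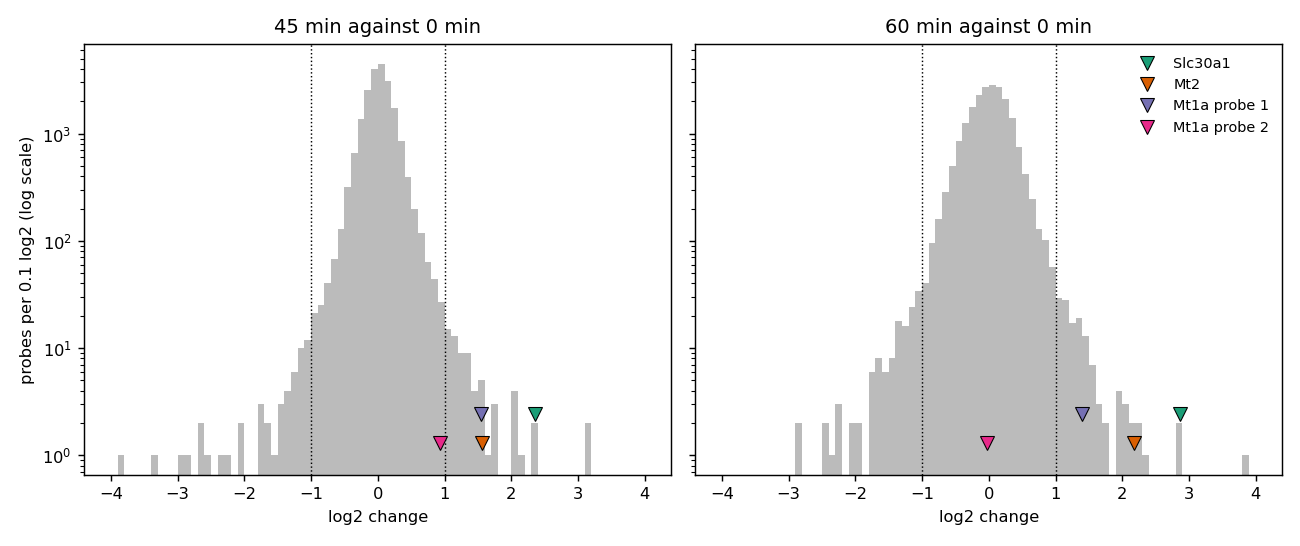
Histogram of the log2 change of all probes measured on both arrays at 45 min (20356 probes) and 60 min (21042 probes) against 0 min, with counts on a log axis, dotted lines at 2-fold, and triangles for Slc30a1, Mt2 and both Mt1a probes; the heights of the triangles carry no value. Slc30a1 stands at 2.36 and 2.86, in the sparse right tail at both times, while Mt1a probe 2 lies at −0.03 at 60 min.

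Over all probes measured at 15 min, 8736 of 20400 lay below their 0 min level and 11664 above it. Of the 25 member probes measured, 14 lay below that level and 11 above it. Among them, all 3 measured metallothionein probes, Slc30a1 and both Slc39a14 probes lay below it by 0.24 to 0.84 log2 units, whereas Slc30a2 probe 1 and Slc39a1 lay 0.28 above it. Slc39a11 probe 1, with a change of −0.54, and Slc30a6, with −0.28, lay below their 0 min levels too. These probes are named for their values at that time, and the median of all probes was 0.03. With normexp background the 15 min changes were 0.24 for Slc30a1 and 0.54 and 0.87 for the Slc39a14 probes, so their direction turned, while the metallothionein probes stayed below 0. Refitted without 5 spots far below their local background, the same correction gave −0.20 for Slc30a1 and −0.20 and −0.04 for the Slc39a14 probes. Each of these changes rests on the same 0 min and 15 min arrays. Taken against the 15 min array in place of 0 min, the 30 min changes were 1.27 for Slc30a1 and 0.90 for Mt2. Those of Mt1a were 1.48 for probe 1 and 1.25 for probe 2. On that reference 3 of 26 member probes were at least 2-fold higher at 30 min, where 0.263% of all probes were. None was 2-fold lower, where 0.124% were. The 3 probes were at their lowest at 15 min, so that reference enlarges their changes.

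Other genes of metal handling were set beside these. Of 8 further genes reported as MTF-1 targets in mouse or human, 4 were measured, and none was 2-fold different at any time. Their median change was −0.03, −0.03, −0.07 and 0.03 at 15, 30, 45 and 60 min. Those 4 were Gclc, which limits glutathione synthesis, Ndrg1, the iron exporter gene Slc40a1 and the hepcidin gene Hamp, and Slc40a1 at 45 min had the largest change, −0.43. Genes of copper and iron handling, such as Atp7b, Tfrc and Fth1, had 19 to 21 measured members, medians between −0.05 and 0.07, and none 2-fold different. Slc40a1 and Hamp are counted in this list too. The heme oxygenase gene Hmox1 had the highest value among them, 0.48 at 60 min. The 5 measured zinc metalloenzyme genes, among them Sod1 and Alad, had medians between −0.08 and 0.16 and none 2-fold different. Over all probes, 0.118% to 0.632% were at least 2-fold higher and 0.188% to 0.627% lower, depending on the time. With shares this small, the absence of a call in lists this short says little about them.

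Genes induced by glucocorticoids had 9 or 10 measured members, with medians of 0.03, 0.00, 0.04 and 0.14 at 15, 30, 45 and 60 min. None was 2-fold higher. Angptl4, whose product inhibits lipoprotein lipase, was the 1 member at least 2-fold lower, at 60 min, where 0.627% of all probes were. Its log2 levels were −0.30, −0.03, −0.60, −0.63 and −1.40 in order of time. Acute-phase and interleukin-6 response genes had 8 measured members, with medians of −0.06, 0.08, 0.29 and 0.26. One of them, Lcn2, the iron-siderophore-binding lipocalin, was at least 2-fold higher at 45 and 60 min, where 0.334% and 0.632% of all probes were. Its log2 levels of 0.31, −0.25, 0.79, 1.47 and 1.83 were lowest at 15 min and highest at 60 min. Other members of that list had other courses. At 60 min 7 of the 8 lay above their start, whereas Socs3 had a change of −0.59. A2m was highest at 15 min, with a change of 0.57. These lists were not chosen blind to the data.

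**Figure D5:**
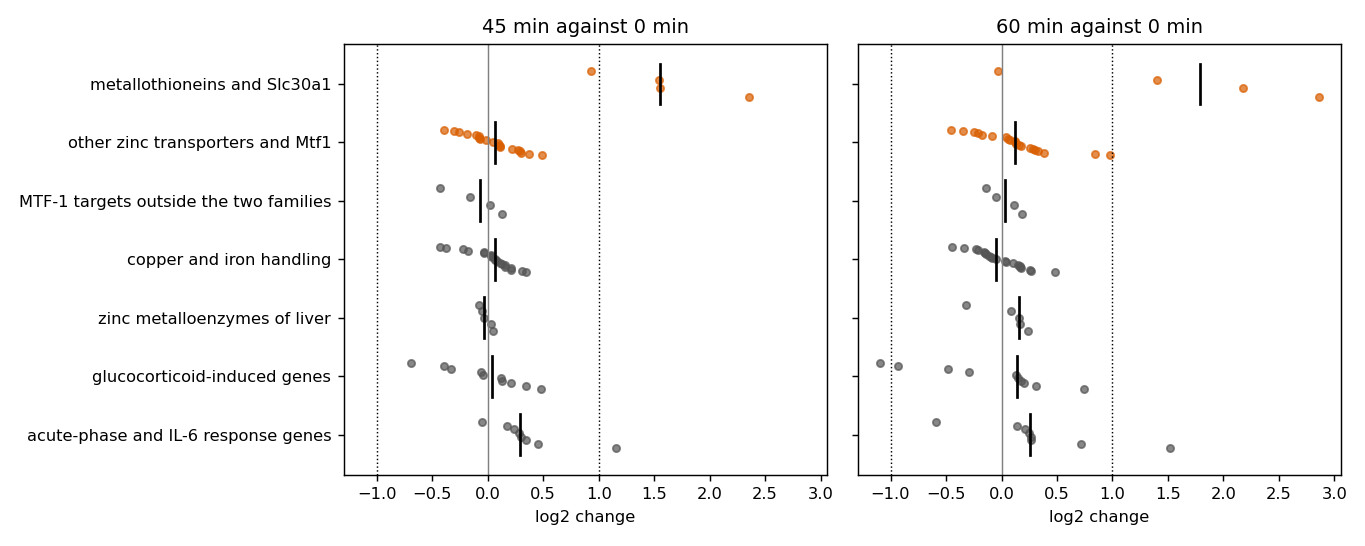
Log2 change at 45 min (left) and 60 min (right) against 0 min, 1 point per probe for the zinc genes (orange) and 1 point per gene, by its brightest probe, for the other lists (grey); black bars are medians and dotted lines mark 2-fold. Slc30a1 and most metallothionein probes lie right of the 2-fold line, as does Lcn2 at 1.16 and 1.52 in the bottom row, and the MTF-1 target, copper and iron, and zinc enzyme lists lie between −0.45 and 0.48.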

How the data were processed

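The deposited intensity of each Cy3 spot came from Agilent Feature Extraction, version 9.5.3.1, with spatial and multiplicative detrending, on a rat array annotated on rn4, per the file headers. The deposited series matrix holds log2 values whose median over probes was 0 on each array. How it was made is not stated in these sources, but across probes its changes had a correlation of 0.999997 or more with those computed here.

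Control spots and 100 to 163 outlier spots an array were dropped, repeated spots averaged, and processed signals scaled to the array's 75th percentile over non-control spots, then floored at its lowest signal well above background, then put on a log2 scale. A change needed the probe well above background on both arrays. For a member probe so at only 1 of them, the ratio of the signals is given and not counted. The software's own error of a member signal was 10.0% to 13.2%, no spot was saturated, and precision is limited by having 1 array a time. Of 41012 probes, 19732 were named through a RefSeq table of GRCr8, which gave 25 of the 26 members a current symbol. List genes are represented by their brightest probe. The fold counts were tested on simulated data.

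Members, lists and the choice of genes named with every level were made with earlier results of these data known. Members got every level where a probe passed 1.5-fold or for metallothioneins and Mtf1, and list genes where they passed 2-fold. Some other genes are named as examples. Alternatives were normexp background (limma 3.58.1 in R 4.3.3, offset 50), quantile, spike-in and detected-probe scaling, other filters, the series matrix, the 15 min reference and 1 probe a gene. Python 3.11.15 did the rest (matplotlib 3.10.9 for figures, pandas 2.3.3, numpy 2.4.6).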

Additional observations from a re-analysis of the deposited data

How the results depend on the processing

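Of the counts and medians recomputed under the alternatives, 110 stayed within 1.5 times the reported count or within the technical standard deviation of the reported median, and 7 did not. With normexp background 2 member probes were 2-fold higher and 1 lower at 15 min, with a median of 0.19. That setting also called 3261 of all probes 2-fold higher at 15 min, against 24 as reported. Refitted without 5 spots far below their local background, which was added after seeing the data, it called 2. With spike-in scaling 1 member probe was 2-fold lower at 15 min, and the medians were −0.10 at 45 min and −0.074 at 60 min. Against the 15 min array, 3 member probes were 2-fold higher at 30 min, where 0.263% of all probes were. Of the recomputed changes of named probes, 252 moved by less and 63 by more than the technical standard deviation, and none past 2-fold reversed. Over the settings that kept the 0 min reference, Slc30a1 was between 1.90 and 2.37 at 45 min and between 2.43 and 2.86 at 60 min, Mt2 between 1.35 and 1.57 and between 1.98 and 2.28, and Mt1a probe 1 between 1.33 and 1.55 and between 1.20 and 1.40. At 60 min Slc30a2 probe 1 was between 0.62 and 0.98 and Slc39a14 probe 1 between 0.47 and 0.84. In both the reported value was the highest. The 15 min change of Slc30a1 ranged between −0.49 and 0.24, and those of the Slc39a14 probes between −0.66 and 0.54 and between −0.42 and 0.87. The positive ends came from normexp background as first fitted, and with those 5 spots left out the values were −0.20, −0.20 and −0.04. Counts of 2-fold calls over all probes moved by over 1.5 times under normexp background (higher and lower calls of 14 and 18, 25 and 19, and 49 and 41 at 30, 45 and 60 min), spike-in scaling (13 and 77, 28 and 66, 39 and 99, 76 and 268 at 15, 30, 45 and 60 min), no filter on dim probes (306 and 318, 319 and 232, 380 and 350, 447 and 721) and the 15 min reference (53 and 25, and 84 and 32, at 30 and 45 min). The reported counts were 24 and 52, 47 and 38, 68 and 52, and 133 and 132. No paired analysis was possible because each time has 1 array. Signal near background limits the 9 undetected probes and Slc39a2.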
